A study of Schizosaccharomyces pombe with 97 samples.

Results

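The genes described here are the cytosolic ribosomal protein (RP) genes of the fission yeast Schizosaccharomyces pombe, in cells that were growing and in cells that had been held without nitrogen. They were chosen by name: every gene of the count table whose name starts with rpl or rps followed by a digit. The rule matched 140 of the 7014 genes in the table. Of these, 131 were protein-coding RP genes, 55 for the small (40S) subunit and 76 for the large (60S) subunit, and 9 were antisense RNAs named after the RP gene they overlap. The RP genes are the members described below, and the antisense RNAs are given apart.

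The strains were hht2∆, pht1∆, iec1∆, asp1∆, arp42∆ and ies2∆ and the wild type, smt0. Each mutant carried a deletion of 1 gene, marked by a kanMX4 cassette. It came from a deletion library crossed to smt0 so that it needed no added nutrients. All strains, the wild type included, carried smt0, a mating-type locus that cannot switch, so that starved cells enter quiescence in place of mating. hht2 encodes a histone H3, pht1 the histone variant H2A.Z, asp1 an inositol kinase, and iec1, arp42 and ies2 encode subunits or putative subunits of the Ino80 chromatin remodelling complex. Cells in minimal medium with nitrogen (PMG+N) were sampled before the shift (T0) and then in medium without nitrogen (PMG-N) after a stay of 1 day (T1D), of 1 week (T1W) or of 2 weeks (T2W). Each of the 27 groups had 3 cultures, A, B and C, giving 81 libraries, and there was no ies2∆ group at T2W. The study's methods name the ies2∆ samples as a second batch, and it holds no smt0 library, so strain and batch cannot be told apart for ies2∆. RNA-seq of rRNA-depleted RNA was counted per gene, and ERCC spike-in RNAs had been given to each sample by a count of cells. The study's methods name vegetative cells for this count, and its results the cells of each sample.

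RP genes encode the proteins that, with the rRNAs, form the ribosome. In growing yeast their mRNAs are among the most abundant, and their transcription follows nutrient supply through the TOR pathway. Most fission yeast RP proteins are encoded by more than 1 gene, and the copies often differ in few residues or none. Many fission yeast RP promoters have no TATA box and carry in its place a HomolD box, often beside a second element called HomolE.

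The 131 genes held between 28 and 63263 counts per gene and library, none at 0, and summed to 44895 to 1492167 counts per library out of totals of 1980570 to 18992894. All 131 passed the filter on low counts. By name, 50 families with more than 1 copy were found, and 4 more were added from the protein names in RefSeq (among them rps23 with rps2302, rpl15 with rpl1502 and rpl35a with rpl35b). The resulting 54 families held 111 genes, 51 of them with 2 copies and 3 with 3 copies (rpl8, rpl16, rps4), and 20 genes stood alone. Over 60 pairs of copies the proteins were identical in 16 and had a median identity of 97.9%, down to 79.5% for rpl3001 and rpl3002. The mRNAs could mostly be told apart: 105 genes were unique in every stretch of 58 bases, the read length. In 8 genes under 90% of such stretches were unique (among them rpl1201, rpl1202, rpl301, rpl302, rpl1001 and rpl1002). The split of counts between the copies of those 4 pairs is uncertain, since how reads with several matches were counted is not given in the sources used here.

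The promoters were searched in RefSeq's genome (assembly ASM294v3), from 250 bases before to 50 after each annotated start, for the HomolD box (CAGTCACA or CAGTCACG) and the HomolE core (GGGTAGGG), on both strands. The HomolD box was in 110 of 131 RP promoters (84.0%), against 86 of 4981 promoters of other coding genes (1.73%) and 3.83% of all 5112. The HomolE core was in 47 RP promoters (35.9%), against 34 others (0.683%) and 1.59% of all. The 117 HomolD boxes lay at a median of -51 bases from the start, with quartiles at -57 and -47, and 76 of them read forward and 41 in reverse. Both elements were in 37 RP promoters and neither in 11. A match is a description of letters in this window, not evidence of a bound factor.

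The windows below, 30 bases each and read 5′ to 3′ on the gene's strand with the HomolD box in capitals, are those of the 5 families whose copies had the largest shifts in their ratio in smt0 at T1D. They are shown because both copies of each pair carry the box although one copy fell more than the other in smt0 at T1D. The pairs were not alike in the HomolE core. It was found for rps2202, rpl101, rpl3001 and rpl3702 but not for their partners, and for neither copy of rps26. For rps26 the windows are at chrI:236064-236093 and chrI:2793518-2793547, both on the minus strand, with the box at -55 and -52.
rps2601: tattttcaaaaCAGTCACGgcccaaactct
rps2602: gacccaaaaagCAGTCACAtcacaatttag
For rps22 they are at chrI:1162696-1162725 and chrI:1512422-1512451, both on the minus strand, with the box in reverse at -56 and -50.
rps2201: gttcgtagacaTGTGACTGctttttttgag
rps2202: tagggtttttaTGTGACTGctcctgtagat
For rpl1 they are at chrIII:612617-612646 on the minus strand and chrII:3060481-3060510 on the plus strand, with the box in reverse at -56 and forward at -57.
rpl101: tatttcttaaaTGTGACTGtcattctactg
rpl102: ctatatagaaaCAGTCACAaagatagtaga
For rpl30 they are at chrI:1974113-1974142 and chrI:5095916-5095945, both on the minus strand, with the box at -48 and in reverse at -55.
rpl3001: agggtttgaagCAGTCACAttttaatttgt
rpl3002: gtttggatttaTGTGACTGtttttcttgga
For rpl37 they are at chrIII:1847907-1847936 on the minus strand and chrI:1275421-1275450 on the plus strand, with the box in reverse at -51 and -57.
rpl3702: accctgagaaaTGTGACTGtttttttggtc
rpl3703: tgtttggtagtCGTGACTGtctttctcgag

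Some libraries stood apart, and they are named here because results below rest on them. The row of the deleted gene was at 0.209% to 0.958% of the smt0 level in 7 of the 12 hht2∆ libraries, but at 14.9% to 32.2% in the 4 libraries A and at 14.2% in T2W C. In ies2∆ the row of ies2 stood at 214% of smt0 in T0 C and at 36.7% in T1D B, so these libraries went against their label. It was at 2.75% to 8.24% in asp1∆. For pht1∆, iec1∆ and arp42∆ reads of the row remained in every library, and why was not tested. Its coding part is 33.2% to 51.7% of its length, against 52.8% for hht2. The row stood at 38.0% to 127% of smt0 in pht1∆ and iec1∆. In pht1∆ it was highest in library C at each time (91.0% to 115%), against 38.0% to 76.5% in A and B. In arp42∆ it was at most 36.5% at T0 but 42.5% to 90.9% in the starved libraries. Whether the libraries of these 3 mutants match their label is thus not settled by this row. Mitochondrially encoded transcripts took 34.0% to 41.8% of the counts in ies2∆ at T1W and 25.3% in iec1∆ T2W B, against 7.46% to 21.5% in all other libraries.

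RP transcripts made up 8.77% ± 0.79 of all gene counts in growing wild-type cells and 3.46% ± 0.80 after 1 day, 2.5% ± 0.36 after 1 week and 2.16% ± 0.35 after 2 weeks without nitrogen (SD, n = 3 each). The smt0 libraries A, B and C held 9.61%, 8.65% and 8.05% at T0, then 4.28%, 3.42% and 2.68% after 1 day, 2.12%, 2.57% and 2.83% after 1 week, and 2.52%, 2.14% and 1.82% after 2 weeks. No starved smt0 library overlapped the T0 libraries. The T1D share was 39.5% of the T0 share. Small-subunit genes took 39.9% to 45.6% of RP counts over all 81 libraries, so both subunits kept a similar part throughout.

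At T0 the group means ran between 8.38% in arp42∆ and 10.2% in pht1∆, and at T1D between 2.36% in arp42∆ and 3.65% in asp1∆. At both of those times every group overlapped its neighbour in the order, but against smt0 itself the pht1∆ libraries at T0 (9.64% to 10.9%) lay above every smt0 library (8.05% to 9.61%), and the arp42∆ libraries at T1D (2.25% to 2.52%) lay below every one (2.68% to 4.28%). At T1W asp1∆ stood alone: its libraries held 6.40%, 6.69% and 7.32%, against 2.12%, 2.57% and 2.83% in smt0. The other 5 mutants at T1W had means of 2.28% to 3.24%, each overlapping a neighbour. For ies2∆ the direction turned with the denominator: its mean was 2.47% of all gene counts, against 2.5% in smt0, but 3.98% ± 0.16 of coding counts, against 3.14% ± 0.38 in smt0 (SD, n = 3 each), without overlap.

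At T2W smt0 was the lowest group and asp1∆ the highest. The asp1∆ libraries held 6.48%, 6.38% and 7.08%, the arp42∆ libraries 3.91%, 4.24% and 3.22%, and the pht1∆ libraries 3.31%, 3.35% and 3.36%, against 2.52%, 2.14% and 1.82% in smt0. hht2∆ held 4.00%, 2.87% and 3.29%. iec1∆ was split, with 5.01% in A, 2.27% in B and 5.43% in C, and B is the library with 25.3% of mitochondrial counts, whose part in the split was not tested. The asp1∆ libraries overlapped no other group, and smt0 did not overlap its neighbour pht1∆.

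**Figure D1:**
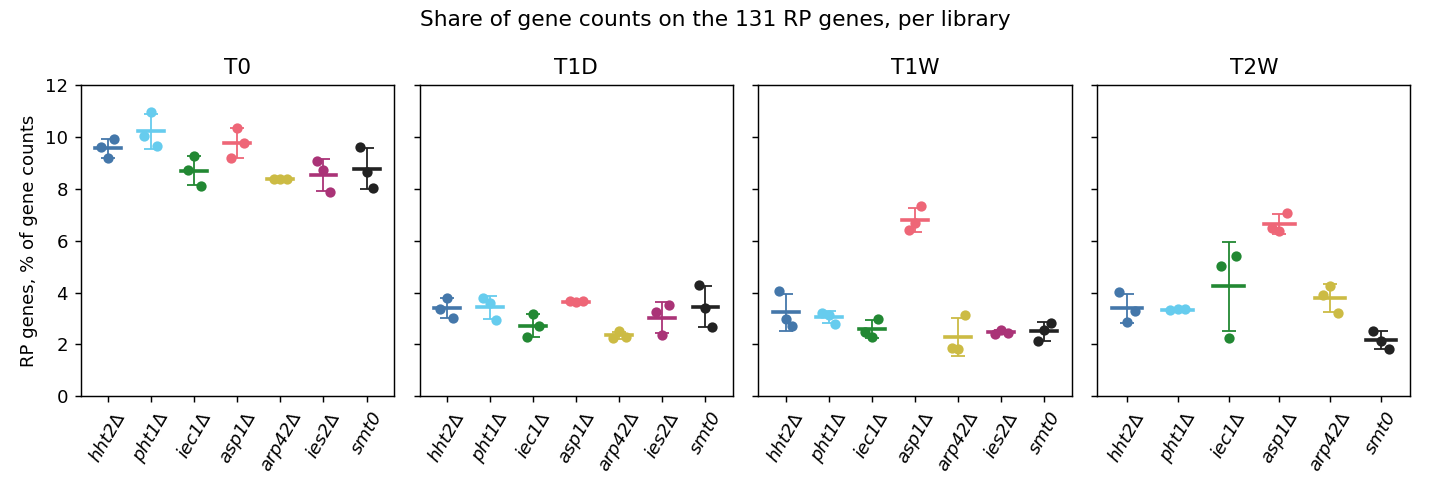
RP counts as a percentage of all gene counts in each library, in 1 panel per time point, with mutants left of smt0; points are cultures, horizontal bars means and error bars SDs (n = 3). The smt0 mean is 2.16% at T2W, against 8.77% at T0, and the asp1∆ points at T1W and T2W (6.38% to 7.32%) lie above those of the other strains.

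Levels of the genes can be set side by side only per length, as CPM (counts scaled to the library's gene total) per kb of annotated exon. In smt0 at T0 the median RP gene stood at 876.8 CPM per kb, and the range was 92.3-fold. rps21, a gene for eS21 of the small subunit, had the highest level, 3291, 3865 and 3696 CPM per kb in A, B and C, followed by rpl42 (2845, 3118 and 3229), whose product eL42 lies at the exit site of the large subunit, and rpl3401 (2791, 3187 and 3146). The SDs of the neighbours rpl42 and rpl3401 overlapped. The lowest was rpl1603, the third copy for uL13, with 39.2, 38.6 and 39.8 CPM per kb, then rps1002 (115, 94.5 and 99.4) and rpl3002 (117, 103 and 112), which overlapped. The coding part of rpl1603, 594 bases, is a small part of its annotated exons, which a level per kb takes whole.

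The median level in smt0 was 372 CPM per kb at T1D, 268 at T1W and 226 at T2W. In asp1∆ it was 626 CPM per kb at T1W and 673 at T2W. rpl1603 had the lowest level per kb in every one of the 27 groups. The highest gene changed: it was rpl29 at T1D (1544 CPM per kb), rps21 at T1W (815) and rpl3401 at T2W (709) in smt0.

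**Figure D2:**
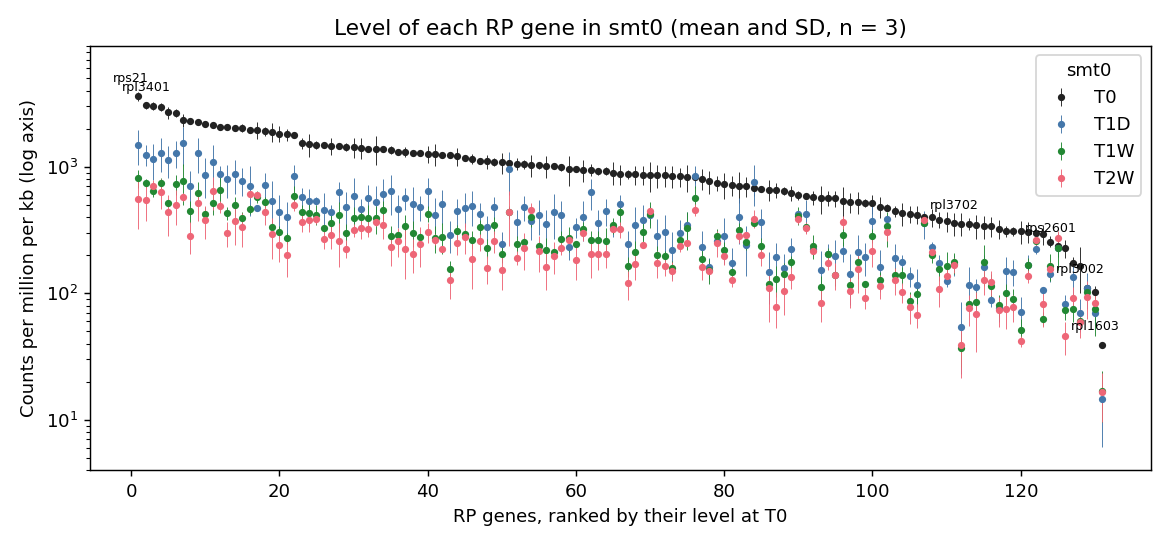
Level of each of the 131 RP genes per kb of exon (CPM per kb, log axis) in smt0, as mean and SD of 3 libraries, with genes ranked by their T0 level and the time points in colours. Most genes lie lower at the starved times (medians 876.8, 372, 268 and 226 in time order), rps2601 and rpl3002 lie close to their T0 level, and rpl1603 is the lowest gene each time.

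On the relative scale, where each gene is compared with the bulk of the other genes (TMM factors, edgeR's quasi-likelihood test over 6608 genes, adjusted p under 0.05), nearly all RP genes fell in starved wild-type cells. Of 131, 124 were lower at T1D than at T0, against 26.9% of all genes tested. At T1W 126 were lower (30.5% of all genes), and at T2W 126 (32.6% of all genes). None was higher at any time. The median change was -1.56, -2.02 and -2.34 on the log2 scale at T1D, T1W and T2W, a level 2.96-, 4.06- and 5.07-fold lower, while the median over all genes stayed between -0.03 and 0.02. The counts without any single library were 119 to 123 at T1D and 125 to 126 at T1W and T2W.

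The genes that fell furthest were found in both subunits. rpl3702, which encodes eL37, had 39.5, 14.0 and 16.6 CPM (TMM-scaled) at T1D, against 219.5, 160.0 and 147.3 at T0. Its log2 change was -2.89 ± 0.38 (SE, adjusted p = 3.1e-09) at T1D, -3.43 ± 0.40 (6.6e-11) at T1W and -3.40 ± 0.40 (8.3e-11) at T2W. rps1502, a gene for uS19 at the head of the small subunit, had 111.4, 95.3 and 59.5 CPM at T2W, against 1080, 1007 and 954 at T0, a change of -3.51 ± 0.30 (adjusted p = 1.5e-15). rps2201, a gene for uS8, had 157.6, 143.5 and 78.8 CPM at T2W, against 1537, 1298 and 1212 at T0, a change of -3.41 ± 0.32 (adjusted p = 6.2e-14). In each of these the T0 libraries lay far above every starved library. rpl801, a copy for uL2 near the peptidyl transferase centre, was among the largest falls at T1D, with 163.6, 110.9 and 117 CPM at T1D, against 900.6, 683 and 581.2 at T0 (-2.47).

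Members with well-known roles moved with the rest. rps601, a gene for eS6, the protein whose phosphorylation reports TOR activity, fell by 1.68, 1.85 and 2.06 on the log2 scale at T1D, T1W and T2W, and rps602 by 2.24, 1.98 and 2.11. Genes for the proteins that bind 5S rRNA fell too: rpl501 (uL18) by 1.95, 2.19 and 2.58 and rpl1102 (uL5) by 2.15, 2.60 and 2.73. rps23, which encodes uS12 of the decoding centre, fell by 1.90, 2.53 and 3.24. rps1402, a gene for uS11, fell by 2.35, 2.64 and 2.81, rpl42 by 1.50, 2.21 and 2.72, rpl3201 by 1.72, 2.36 and 2.57, and rps21 by 1.48, 2.32 and 2.94. The other copies were lower too in smt0 at T2W than at T0. rpl502 had 323 CPM per kb against 899, rpl1101 76.6 against 354 and rps2302 284 against 707. rps1401 had 59.8 against 166 and rpl3202 270 against 1474. In these levels each but rpl3202 fell by less than its partner above. rpl301 and rpl302 (uL3) also fell at each time, but for these the split between copies is uncertain.

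In all, 122 RP genes fell at all 3 times (21.7% of all genes did so), 6 at 1 or 2 times and 3 at none. The 3 were rps2601, rpl3002 and rpl102, each a member of a family whose other copy fell. rps2601, a gene for eS26, which lies where mRNA leaves the small subunit, had 146.2, 104.8 and 115.3 CPM at T1D and 121.9, 142.7 and 157.9 at T2W, against 174.9, 124.4 and 133.2 at T0. The starved and T0 libraries overlapped, and its changes were -0.24, -0.22 and -0.03 (adjusted p = 0.43, 0.46 and 0.91 at T1D, T1W and T2W), while rps2602 fell by 2.08, 2.35 and 2.58. An antisense RNA named after rps2601 rose to 8.22 ± 4.02 CPM at T2W, against 1.61 ± 0.18 at T0, and reads of such pairs are split only if counting used the strand, which is not given in the sources used here. rpl102, a gene for uL1 of the L1 stalk, had 280.6, 299.6 and 272.4 CPM at T2W, against 356.5, 356.4 and 352.2 at T0. Its changes were -0.37, -0.33 and -0.32 (adjusted p = 0.080, 0.12 and 0.12), while rpl101 fell by 1.82, 2.00 and 2.35. rpl3002 changed by -0.20, -0.29 and -0.46 (adjusted p = 0.59, 0.41 and 0.18). Among the 6 others, rps3001 stood at -0.04 at T1D and fell by 1.09 at T1W and 1.04 at T2W, and rps29 stood at -0.37 at T1D and fell by 1.45 and 1.52.

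Split by promoter element, subunit or copy number, the RP genes had similar medians. At T1D, T1W and T2W the median log2 change was -1.58, -2.03 and -2.35 for the 110 genes with a HomolD box and -1.51, -1.97 and -2.34 for the 21 without. It was -1.49, -1.97 and -2.24 with a HomolE core and -1.58, -2.19 and -2.47 without. Small-subunit genes had -1.56, -2.02 and -2.34, and large-subunit genes -1.57, -2.05 and -2.35. Genes with copies had -1.61, -2.09 and -2.36, and single genes -1.45, -1.97 and -2.21. These groups of genes were compared without a test.

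**Figure D3:**
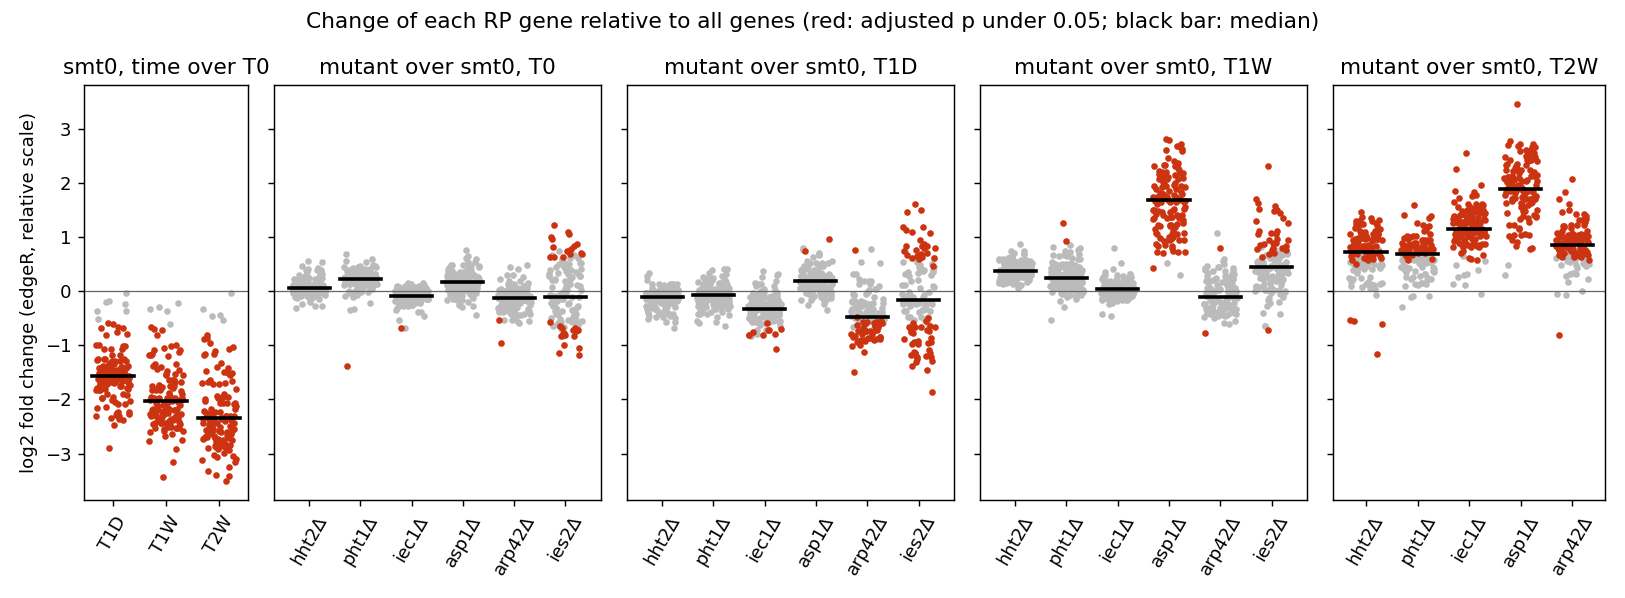
Log2 change of each RP gene on the relative scale in each comparison, 1 point per gene, red where the adjusted p was under 0.05 and grey otherwise, with the median as a black bar. The smt0 medians lie at -1.56, -2.02 and -2.34, those of asp1∆ at 1.68 at T1W and 1.89 at T2W, and ies2∆ at T0 and T1D has called genes on both sides of 0.

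The rest of the cytosolic translation machinery moved in the same direction, the mitochondrial ribosome less. Of 12 further cytosolic ribosome genes that the name rule leaves out (the P-stalk genes such as rpp0, the ubiquitin fusions such as ubi3 and ubi5, and cpc2, the RACK1 gene), 12 fell at each time, with medians of -2.02, -2.37 and -2.31. ubi3 fell by 1.74, 2.38 and 3.19 and rpp0 by 1.71, 1.97 and 2.50. Of all genes tested, 26.9%, 30.5% and 32.6% were lower at T1D, T1W and T2W. Of 29 translation factor genes tested, 25, 22 and 23 fell and 0, 2 and 2 rose (medians -1.21, -1.13 and -1.25). Of 36 mitochondrial RP genes, 14, 21 and 22 fell and 4 rose at each time (medians -0.32, -0.69 and -0.80). The genes of 3 factors tied to RP promoters, rrn7, fhl1 and sfp1, all rose at each time. The share of all genes that rose is not given here, so the rises in this paragraph have no background beside them. Rrn7 binds the HomolD box in fission yeast, and the roles of Fhl1 and Sfp1 at RP genes are known from budding yeast. sfp1 had 544.8 ± 11.1 CPM at T1D, against 221.1 ± 49.9 at T0 (1.30).

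Set against the ERCC spike-in, the fall was far larger and its error too. Here library size was set by the ERCC counts (their sum and their own TMM factor). The study's methods tie the spike-in amount to vegetative cells, its results to the cells of each sample. A change may thus hold both fewer cells and less RNA per cell, which cannot be told apart in these bulk samples. At T1D 120 of 131 RP genes were lower in smt0 than at T0 (21.4% of all genes), with a median change of -2.45, against -1.05 for all genes. At T1W 131 were lower (97.3% of all genes), with a median of -7.43 against -5.29 for all genes, and at T2W 131 (96.1% of all genes), with -7.14 against -4.94. These medians are 5.45-, 172.0- and 141.2-fold. At T1W and T2W nearly every gene was called lower, so the count of RP genes adds nothing, and what marks them is the larger size. rps601 had 200.7, 120.5 and 28.5 ERCC-scaled CPM in A, B and C at T1W, against 19983, 15500 and 15548 at T0.

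The spread of the spike-in ratio was wide. Summed RP counts per ERCC count, as log2 differences from the smt0 mean at T0, were -1.43, -2.95 and -4.25 in the smt0 libraries of T1D, -6.59, -7.25 and -9.34 in those of T1W and -6.77, -6.47 and -9.01 in those of T2W. The T1D count of lower genes was 27 without library C and 43 without library B, and 131 at most.

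**Figure D4:**
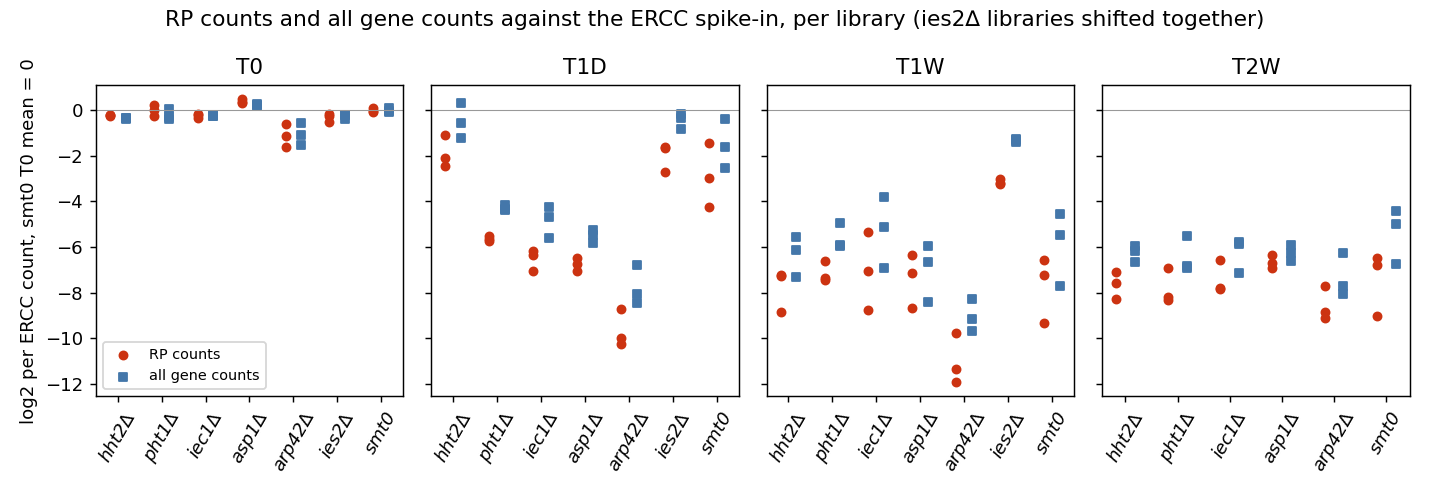
Summed RP counts (circles) and all gene counts (squares) per ERCC count in each library, as log2 differences from the smt0 mean at T0, with 1 panel per time point; the ies2∆ libraries are shifted together by 1 offset. The smt0 RP points spread between -1.43 and -4.25 at T1D and between -6.47 and -9.01 at T2W, and the arp42∆ RP points at T1D lie at -8.70 to -10.2.

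On the ERCC scale at T1D, 131 RP genes were lower than in smt0 in pht1∆ (93.8% of all genes), in iec1∆ (93.7%), in asp1∆ (96.4%) and in arp42∆ (98.4%). The median RP changes were -3.28, -4.12, -4.31 and -7.10, against -3.09, -3.60, -4.36 and -6.52 for all genes. The RP genes thus moved close to the bulk there. For hht2∆ at T1D 0 were called by edgeR and 0 by DESeq2, with 0 at unadjusted p under 0.05 (0.938% of all genes called in either direction). The libraries of ies2∆ were shifted together by -3.70 log2 units so that their mean ratio of gene to ERCC counts at T0 matches that of the other strains. After that shift 3 RP genes were higher at T1D (rpl3702, rpl1802 and rps001; 6.75% of all genes in either direction), and without it 131 were lower, so the ies2∆ result on this scale rests on the shift.

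On the relative scale 0 to 2 RP genes were called against smt0 at T0 in each mutant other than ies2∆. All mutants at a time are compared with the same 3 smt0 libraries. In hht2∆ 0 RP genes were called by edgeR and by DESeq2, and 2 had an unadjusted p under 0.05 (4.65% of all genes called in either direction). Without its library A, in which hht2 counts remained, 0 were called at T0 and at T1D too. In asp1∆ 0 were called by either tool and 5 had such a p (3.22% of all genes). In pht1∆ 1 was called (11.6% of all genes), in iec1∆ 1 (6.84%) and in arp42∆ 2 (19.6%). The gene in pht1∆ was rpl1603, with 55.1, 38.6 and 35.0 CPM, against 113.7, 109.4 and 112.5 in smt0 (-1.39 ± 0.26, adjusted p = 0.00016). rpl1603 was also lower in arp42∆, with 55.0, 57.5 and 59.6 CPM (-0.96, adjusted p = 0.0049), beside rpl102 (-0.54). A fit of the arp42∆ and smt0 groups alone called 5 RP genes higher and 27 lower. The shares of all genes given here and below are those of the main fit, not of such alternative fits. In iec1∆ rpl2102 had 712.5, 646.9 and 570.8 CPM, against 1119, 1046 and 936.4 in smt0 (-0.68, adjusted p = 0.043). That call ended when any 1 library of the comparison was left out, and when genes averaging under 10 counts were dropped.

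In ies2∆ at T0 16 RP genes were higher (11.1% of all genes) and 16 lower (10.5% of all genes), near the background in each direction, and the median was -0.10. rpl1802, a gene for eL18, had 854.9, 827 and 920.2 CPM in ies2∆, against 496.9, 325.7 and 290.2 in smt0 (1.23, adjusted p = 0.00066). rps3002, a gene for eS30, had 179.9, 164.5 and 89.0 CPM, against 290.7, 332.1 and 352.9 (-1.17, adjusted p = 0.0022). Leaving out 1 library gave 3 to 20 higher and 6 to 12 lower. The higher count was 3 without smt0 C, 7 without smt0 B and 8 without ies2∆ A or B, and the lower count 6 without ies2∆ C, the library in which the ies2 row was high and without which 14 were higher, 8 without smt0 B, 9 without smt0 C and 10 without ies2∆ B.

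After 1 day without nitrogen 0 to 2 RP genes were called in hht2∆, pht1∆ and asp1∆. No RP gene was called by edgeR or DESeq2 in hht2∆ (0, with 2 at unadjusted p under 0.05; 0.409% of all genes called) or in pht1∆ (0, with 3; 7.7% of all genes). In asp1∆ 2 were called (12% of all genes), both higher: rps3, for uS3 at the mRNA entry, with 259.3, 243.3 and 264.9 CPM, against 113.3, 107.8 and 173.8 in smt0 (0.96, adjusted p = 0.048), and rpl2001 (0.75). The rps3 call ended with a replicate block and when any 1 library other than smt0 C was left out. A fit of the 2 groups alone called 11 RP genes higher in asp1∆, and DESeq2 called 5.

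In iec1∆ at T1D 10 RP genes were lower (6.37% of all genes), a share near the background, with a median of -0.33. The largest fall was that of rps2601, the gene that held its level in smt0, with 46.2, 83.4 and 45.3 CPM in iec1∆, against 146.2, 104.8 and 115.3 in smt0 (-1.07, adjusted p = 0.0022). That count was 1 without iec1∆ C, 4 without iec1∆ A, 3 without smt0 A and 21 without iec1∆ B.

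In arp42∆ at T1D 43 RP genes were lower (17.6% of all genes) and 1 higher (14.7% of all genes), with a median of -0.49. rpl1603 had 11.1, 11.9 and 15.8 CPM in arp42∆, against 61.5, 25.8 and 21.2 in smt0 (-1.50, adjusted p = 7.1e-05). rps601 had 276.3, 237.1 and 250.9 CPM, against 509.2, 311.1 and 331.6 (-0.59, adjusted p = 0.044). The higher gene was rpl1802 (0.76, adjusted p = 0.025). The count of lower genes was 5 without smt0 A and 20, 19 and 27 without arp42∆ A, B and C, and 16 in a fit of these 2 groups alone.

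In ies2∆ at T1D 26 RP genes were higher (21.5% of all genes) and 37 lower (21.5% of all genes), so the higher share was near the background and the lower share above it. rps001, a gene for uS2, had 226.7, 119.6 and 270 CPM, against 82, 50.3 and 86.6 in smt0 (1.50, adjusted p = 5.8e-05). rps3002 had 55.6, 24.1 and 74.6 CPM, against 230, 200.4 and 133.8 (-1.86, adjusted p = 1.2e-06). The higher count was 13 without smt0 B and 17 without ies2∆ C, and the lower count 16 without ies2∆ B, the library with ies2 counts and without which 33 were higher, and 19 without smt0 A. A fit of these 2 groups alone called 6 higher and 10 lower.

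The comparisons at T1W and T2W were added once the shares had been seen. At T1W asp1∆ differed from smt0 across the whole set: 129 of 131 RP genes were higher (27.1% of all genes), with a median of 1.68, a level 3.20-fold higher, and 130 did not overlap between the groups (66.5% of all genes). rpl3702 had 104.9, 121.7 and 117.4 CPM in asp1∆, against 10.4, 19.2 and 19.4 in smt0 (2.81 ± 0.40, adjusted p = 2.8e-08). rps27, a gene for eS27, had 1763, 1761 and 1996 CPM, against 206.8, 309.9 and 320.8 (2.72), and rps2502 (eS25) had a change of 2.67. rps601 moved less, with 687.7, 705.5 and 749.9 CPM, against 287.5, 360.5 and 374.0 (1.07, adjusted p = 0.00011). The genes not called were rps2601 (0.30) and rpl401 (0.51), each the copy of its family that fell less or not at all in starved smt0.

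At T2W asp1∆ again had 129 RP genes higher (26.9% of all genes), with a median of 1.89, a level 3.71-fold higher. rpl3702 had 178.5, 191.7 and 176.8 CPM in asp1∆, against 24.0, 15.2 and 9.80 in smt0 (3.46 ± 0.41, adjusted p = 4.2e-10). rpl501 had 1200, 1132 and 1274 CPM, against 299.9, 276.2 and 188.3 (2.24), and rps23 704.5, 647.6 and 778.7 CPM, against 167.6, 140.9 and 91.0 (2.41). The groups did not overlap in 130 RP genes (61.3% of all genes). Not called were rpl102 and rpl1603. The counts stayed at 125 to 130 at T1W and 129 to 130 at T2W when any 1 library was left out.

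The 12 further cytosolic ribosome genes went with them: 11 rose in asp1∆ at T1W (median 1.62; cpc2 stood at 0.41) and 12 at T2W (2.05). Of the 29 translation factor genes 9 rose and 6 fell in asp1∆ at T1W, where 27.1% of all genes were higher and 28.2% lower, and 12 rose and 6 fell at T2W, where 26.9% were higher and 25.7% lower. Of the 36 mitochondrial RP genes, against the same background, 6 rose and 5 fell at T1W, and 15 rose and 5 fell at T2W. rrn7, fhl1 and sfp1 were lower in asp1∆ at both times (medians -0.62 and -0.58). At T1D, by contrast, asp1∆ had been called in 2 RP genes; the difference between the times was not tested.

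In the other mutants at T1W fewer RP genes were called. In hht2∆ 0 RP genes were called by edgeR and by DESeq2, with 32 at unadjusted p under 0.05 (0.53% of all genes called), and 0 without its library A. In iec1∆ 0 were called likewise, with 2 (0.53% of all genes). In pht1∆ 2 were called, both higher (4.18% of all genes): rpl3702 (1.26) and rpl4302, for eL43 (0.92). In arp42∆ 2 were called (10.7% of all genes), rpl4302 higher (0.80) and rpl102 lower (-0.77). In ies2∆ 33 were higher (6.01% of all genes) and 1 lower (10.3% of all genes), with a median of 0.44, in libraries with 34.0% to 41.8% mitochondrial counts, whose part in the result was not tested. A fit of these 2 groups alone called 73 higher and 2 lower, without the share of all genes it called. rpl3702 had a change of 2.32 there and rpl35b, the lower gene, -0.72.

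At T2W RP genes were higher than in smt0 in each mutant measured, to unequal degrees. By flow cytometry the study found fewer viable cells at T2W in each of these mutants than in smt0, with the smallest drop in hht2∆. It also found the lowest share of cells arrested before DNA replication in iec1∆. What part this had in the RP differences was not tested. Beside asp1∆, 121 were higher in iec1∆ (17% of all genes; median 1.15), 99 in arp42∆ (9.29%; 0.85), 81 in hht2∆ (25.3%; 0.72) and 64 in pht1∆ (8.1%; 0.68). The lower calls were 1 in arp42∆ (7.55% of all genes) and 4 in hht2∆ (21.7% of all genes). In all 5 mutants 49 RP genes were higher (1.76% of all genes were), and the RP genes higher in none were rpl102 and rpl1603. The count of 49 rests on the calls in hht2∆, of which 0 were left without its libraries A and C, and in pht1∆, of which 7 were left without smt0 C.

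The arp42∆ and pht1∆ libraries at T2W did not overlap smt0 in most RP genes, 121 in arp42∆ (33.6% of all genes) and 115 in pht1∆ (36.5%). In arp42∆ rpl4302 had 228.2, 557.2 and 159.0 CPM, against 95.6, 74.9 and 53.9 in smt0 (2.07, adjusted p = 1.5e-06), while rpl1603 was lower (-0.81, adjusted p = 0.036). In pht1∆ rpl3702 had 48.0, 43.0 and 58.8 CPM, against 24.0, 15.2 and 9.80 (1.59, adjusted p = 0.0046). These counts leaned on single libraries: 42 without smt0 C and 45 without arp42∆ B for arp42∆, and 7 without smt0 C, 37 without smt0 B, 30 without pht1∆ A and 39 without pht1∆ B for pht1∆.

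The iec1∆ and hht2∆ groups at T2W were uneven. In iec1∆ rps601 had 728.4, 294.2 and 854 CPM, against 319.6, 312.1 and 253.8 in smt0 (1.08, adjusted p = 0.00035), so culture B lay within smt0, and the groups overlapped in 56 of 131 RP genes and were apart in 75 (29.3% of all genes). In hht2∆ rpl3401 had 1024, 420.7 and 1134 CPM, against 319.6, 294.8 and 325.6 (1.46, adjusted p = 2.6e-05). Lower there were rps2601 (-1.16), rps802 (-0.61), rpl1902 (-0.56) and rpl102 (-0.54). In a fit of the 2 groups alone, with its own estimate of the spread, 0 RP genes were called in either mutant, with 117 at unadjusted p under 0.05 in iec1∆ and 70 in hht2∆. The hht2∆ count was 37 without library A, and without both A and C, in which hht2 counts remained, 0 were called, with 28 at unadjusted p under 0.05 and a median of 0.40.

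Copies of 1 family did not keep their proportions. For each of 57 pairs, formed by the first copy of a family and each other one, the log2 ratio of counts (0.5 added to each) needs no scaling, and its SD within a group had a median of 0.14. A family was taken as shifted where 2 groups differed by over 0.5 log2 units and their libraries did not overlap. Compared with T0, 24 of 54 families had shifted in smt0 at T1D, 31 at T1W and 30 at T2W. In 18 pairs the shift was seen at all 3 times and in 39 at some time, always in 1 direction for a pair. Over the 27 groups the mean ratio of a pair spanned 0.58 to 3.74 log2 units, with a median of 1.57. Even so 22 pairs had the same copy ahead in every group. These ratios are given with no test. Pairs of other genes were not measured, so the counts of shifted families here and below have no background beside them.

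The largest shift was between the copies for eS26. The log2 ratio of rps2602 to rps2601 was -0.25, -0.80 and -0.99 in smt0 at T1D and -0.76, -1.29 and -1.93 at T2W, against 1.25, 1.38 and 1.10 at T0. The copy that dominated in growing cells was thus the lesser one in all starved smt0 libraries. The proteins differ at 12 aligned positions. For uS8, whose 2 proteins are identical, the ratio of rps2202 to rps2201 was -0.19, 0.27 and -0.01 at T1D and 0.47, 0.53 and 1.12 at T2W, against -1.79, -1.70 and -1.57 at T0.

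For uL1 the ratio of rpl102 to rpl101 was -0.35, -0.29 and -0.53 at T1D and 0.02, 0.13 and 0.50 at T2W, against -2.11, -1.77 and -1.57 at T0. For eL30, the least alike of the pairs, the ratio of rpl3002 to rpl3001 was -1.57, -1.50 and -1.68 at T1D and -0.82, -1.22 and -0.96 at T2W, against -2.92, -3.07 and -2.81 at T0. In both the minor copy of growing cells gained. rpl3703 gained on rpl3702 by 1.44 at T1D, 1.16 at T1W and 0.56 at T2W. rpl1802 gained on rpl1801 late, by 0.25 at T1D, 1.22 at T1W and 1.93 at T2W. rps2302 gained on rps23, which encodes the same protein, by 0.90, 1.24 and 1.76. rpl402 lost against rpl401 by -1.30, -1.54 and -1.71.

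**Figure D5:**
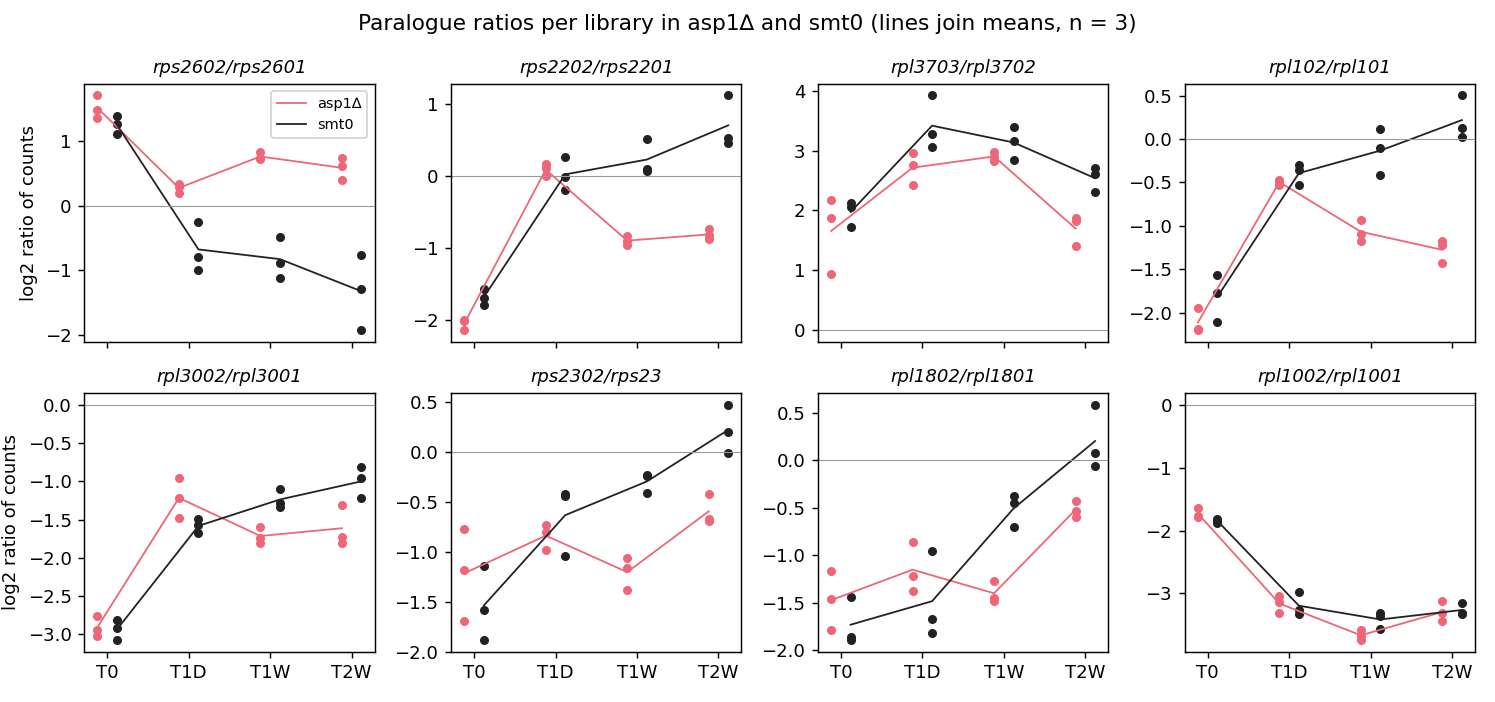
Log2 ratio of counts between copies in 8 families, 1 point per library, in asp1∆ (red) and smt0 (black) at each time point, with lines through the means (n = 3). For rps2602 over rps2601 the T2W mean is 0.58 in asp1∆, against -1.32 in smt0, and rpl1002 over rpl1001, a pair with an uncertain split, is close in both strains.

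Measured per kb, the copies became more even in the median over families, though not in every family. In smt0 the highest copy of a family exceeded the lowest by a median of 1.90-fold at T0, 1.52-fold at T1D, 1.40-fold at T1W and 1.49-fold at T2W. At T0 the widest families were rpl34 (17.4-fold), rpl16 (10.2-fold) and rpl30 (8.39-fold), and the copies of rps19 differed by 1.05-fold. Families over 2-fold numbered 26, 14, 11 and 16 at T0, T1D, T1W and T2W. Those over 4-fold did not become fewer, with 4, 4, 4 and 5, and some families widened. The rpl37 copies, for example, differed by 3.63-fold at T0 and by 9.44-fold at T1D. With the lower copy of each 2-copy family named from the hht2∆ libraries at T0, so that smt0 itself did not choose it, the lower copy gained in 41, 34 and 39 of 51 families in smt0 at T1D, T1W and T2W, with medians of 0.30, 0.32 and 0.40 log2 units. The highest copy stayed the same as at T0 in 43, 45 and 40 of 54.

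Among the mutants at T1W and T2W, asp1∆ had the most families shifted against smt0, counted at the same time: 24 at T1W and 25 at T2W, beside 1 at T0 and 3 at T1D. The ratio of rps2602 to rps2601 was 0.58 ± 0.18 in asp1∆ at T2W, against -1.32 ± 0.59 in smt0, that of rps2202 to rps2201 -0.81 ± 0.07, against 0.71 ± 0.36, and that of rpl102 to rpl101 -1.28 ± 0.14, against 0.22 ± 0.25 (SD, n = 3 each). In each case the asp1∆ value lay between those of smt0 at T2W and at T0. At T2W iec1∆ had 14 shifted families, pht1∆ 12, hht2∆ 11 and arp42∆ 9.

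The hht2∆ cultures at T2W again differed among themselves: the ratio of rpl102 to rpl101 was -2.15 in A, -0.03 in B and -2.05 in C, so that the libraries with hht2 counts stood at the T0 level of smt0 and B at its T2W level. In iec1∆ at T2W the same ratio was -1.17 in A, 0.17 in B and -1.28 in C. ies2∆ had 17 shifted families at T0, 18 at T1D and 15 at T1W, already before starvation: rpl1802 to rpl1801 was -0.57, -0.60 and 0.07 in ies2∆ A, B and C at T0, against -1.44, -1.89 and -1.86 in smt0. arp42∆ had 12 at T1D, and for the same pair the ratio was 0.09 ± 0.44, against -1.48 ± 0.46 in smt0. pht1∆ had 4 at T0, with rpl1603 to rpl1601 at -3.25 ± 0.40, against -1.45 ± 0.25 in smt0. The remaining groups had 0 to 4.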

How the data were processed

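The authors demultiplexed paired reads of 58 bases with bcl2fastq 2.20.0.422, aligned them with STAR 2.7.9a to ASM294v2 with the ERCC sequences and counted annotated exons with featureCounts 1.5.1; the deposited values are raw counts per gene and library. Whether counting used the strand or reads with several matches is not given in the sources used here. The 16 ChIP samples are not analysed here.

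RP genes were picked by name, and IDs matched RefSeq for 131 of 131 (ASM294v3, so its coordinates were used for sequence only). The members and lists were chosen with earlier results of these data known. Counts were tested with edgeR 4.0.16 (quasi-likelihood, 1 fit of 81 libraries with a mean per group, limma 3.58.1, R 4.3.3) over the 6608 genes with over 1 CPM in at least 3 libraries, with Benjamini-Hochberg adjustment per comparison and a threshold of 0.05. TMM factors of gene counts gave the relative scale and ERCC counts the ERCC scale. There were 15 planned comparisons on the relative scale and 9 on the ERCC scale, and 11 added after values had been seen. The fit was tested on simulated data. DESeq2 1.42.0, other filters, a replicate block, fits of 2 groups and leaving out each library were tried. The study describes the replicates as biological triplicates; each culture was sampled at T0 before its shift, and whether a letter follows 1 culture over time is not given in the sources used here.

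The text names RP genes with a textbook role, the 3 with the highest and the 3 with the lowest level per kb in smt0 at T0, the largest changes per comparison among called genes with at least 10 counts and no overlap (3 per direction in smt0, 1 in mutants) and the 5 largest paralogue shifts at T1D and at T2W; others were named after their values were seen. By their deviations the letters A, B and C paired the samples in 1 comparison made here, hht2∆ with smt0 at T2W, where every same-lettered pair correlated at over 0.1 (0.42, 0.29 and 0.24); no label gives a shared batch or day. A gene that this rule names and its family are not reported here.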

Additional observations from a re-analysis of the deposited data

How the results depend on the processing

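The fall of RP genes in starved smt0 and their higher levels in asp1∆ at T1W and T2W kept their direction and stayed within 1.5 times of their counts on the relative scale under every alternative run. With only the 2 groups of a comparison in the fit, the RP genes called at T0 were 5 higher and 27 lower in arp42∆, 1 and 1 in asp1∆, 3 higher in pht1∆, 2 lower in iec1∆ and 38 lower in ies2∆. At T1D they were 2 higher and 16 lower in arp42∆, 11 higher in asp1∆, 1 lower in iec1∆, and 6 higher and 10 lower in ies2∆. At T1W they were 14 higher and 1 lower in pht1∆, 73 higher and 2 lower in ies2∆ and 0 lower in arp42∆. At T2W they were 0 higher and 0 lower in hht2∆, 0 higher in iec1∆ and 0 lower in arp42∆. In each, fewer samples estimate the spread. The share of all genes called by each alternative fit is not given, so these counts have no background beside them. Without the hht2∆ T2W libraries A and C, an alternative chosen after seeing the data, 0 were higher and 0 lower in hht2∆; the lone library is assumed to vary like the other groups.

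DESeq2 called 1 higher in pht1∆ at T0, at T1D 5 lower in iec1∆, 2 higher in arp42∆ and 5 higher in asp1∆, and 4 higher in pht1∆ and 2 higher in arp42∆ at T1W, and on the ERCC scale 15 higher in ies2∆ at T1D. With no filter on low counts 1 was higher in pht1∆ at T0, and 2 were higher in arp42∆ and 5 lower in iec1∆ at T1D. Keeping genes of mean count 10 or more, 0 were lower in iec1∆ at T0, and 2 were higher in arp42∆ and 5 lower in iec1∆ at T1D. Without the shift of ies2∆, 0 RP genes were higher and 131 lower on the ERCC scale. Where no cause is named, the cause was not tested.

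Leaving out 1 library gave, at T0, 0 to 1 higher in pht1∆, 0 lower in iec1∆, 0 to 1 higher in asp1∆, 1 to 2 lower in arp42∆, and 3 to 20 higher and 6 to 12 lower in ies2∆. At T1D it gave 1 to 21 lower in iec1∆, 0 to 3 higher in asp1∆, 0 to 3 higher and 5 to 57 lower in arp42∆, and 13 to 37 higher and 16 to 43 lower in ies2∆. At T1W it gave 0 to 1 higher in hht2∆, 0 to 2 higher in pht1∆, 0 to 3 higher and 0 to 5 lower in arp42∆, and 0 to 1 lower in ies2∆. At T2W it gave 37 to 95 higher and 1 to 4 lower in hht2∆, 7 to 84 higher in pht1∆, and 42 to 105 higher and 0 to 1 lower in arp42∆. On the ERCC scale it gave 27 to 131 lower in smt0, 0 to 1 higher in hht2∆ and 0 to 45 higher in ies2∆, all at T1D.

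As a share of coding counts, and as a share without the 10 most abundant other genes, the RP difference was -6.17 and -6.44 points for T1D minus T0 in smt0, -7.40 and -7.59 for T1W minus T0, and -7.84 and -7.99 for T2W minus T0. Against smt0, asp1∆ stood at 6.89 and 5.85 points at T1W and at 6.54 and 5.97 points at T2W, arp42∆ at 2.25 and 2.13 and pht1∆ at 1.60 and 1.51, both at T2W. In ies2∆ at T1W it was 0.839 and 1.21. With a shift of over 1.0 log2 units required, 11 families had shifted in smt0 at T1D and 19 at T1W.

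In most comparisons the letters A, B and C did not pair the samples: over 129 pairs of same-lettered libraries the deviations from the group means correlated at -0.43 to 0.42 (median 0.011; 30 over 0.1). All 3 pairs were over 0.1 for hht2∆ with smt0 at T2W (0.42, 0.29 and 0.24). There the replicate block called 81 higher and 4 lower, as without it. The block gave each letter 1 effect over all 81 libraries, so it cannot decide about a pairing within 1 comparison. For pht1∆ at T1D with its own T0 all 3 were over 0.1 too (0.12, 0.10 and 0.20), a comparison not made here. A replicate block left every count of RP genes within 1.5 times of the one reported, 124 lower in smt0 at T1D for example, and ended the call of rps3 in asp1∆ at T1D (0.96 with the block and without, adjusted p past 0.05 with it).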

Other observations

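The 9 antisense RNAs with RP gene names had 0 to 206 counts each per library and together never exceeded 0.308% of the RP counts. Their summed counts were 267 of 4011013 gene counts in arp42∆ T1D A and 215 of 4010642 in iec1∆ T2W A. Antisense RNAs of other genes are not given here. In arp42∆ at T1D 7 of the 9 were higher than in smt0 (14.7% of all genes were), with a median log2 change of 2.41 over the 9. The RNA antisense to rpl1801 (SPNCRNA.1594) had 7.82 ± 2.75 CPM in arp42∆, against 0.352 ± 0.084 in smt0 (4.33, edgeR adjusted p = 5.8e-07), and the one antisense to rpl2702 (SPNCRNA.1245) 11.9 ± 4.40 CPM, against 1.04 ± 0.06 (3.51, edgeR adjusted p = 4.5e-07). The smt0 levels of these RNAs rest on few reads, so the sizes of their changes are uncertain. In the same libraries rpl1801 itself was lower (-0.83, edgeR adjusted p = 0.0021). Whether counting kept the strands of such pairs apart is not given in the sources used here. The RNA antisense to rps2601 (SPNCRNA.625) rose in starved smt0 at T1D, T1W and T2W by 1.21, 2.09 and 2.32 on the log2 scale.

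rpl3702 had the largest rise among called members without overlap in these comparisons of mutants with smt0: pht1∆, asp1∆ and ies2∆ at T1W and pht1∆, iec1∆ and asp1∆ at T2W. It was also among the 3 largest falls of smt0 at each time. At T1W and at T2W these rises and the fall use the same smt0 libraries, so they are not independent of each other.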
